A study of Mus musculus with 4 samples.

Results

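The narrow Bmal1 peaks that lie in transcribed exon sequence or at a transcript end of the mouse retina genome are described here. They are the peaks whose annotation by the authors is a coding exon, a 5′ UTR, a 3′ UTR, an exon of a noncoding RNA, or a TTS, the region around the annotated end of a transcript. These classes held 436 of the 16134 narrow peaks of 6 lists, which is 2.70% (95% Clopper-Pearson interval 2.46 to 2.96%), and are called the members below. Bmal1 was immunoprecipitated from isolated mouse retina at postnatal day 5 (P5) and postnatal day 3 (P3), with collection at zeitgeber time 4, and the bound DNA was read by sequencing (ChIP-seq). Each age had 2 libraries, replicates 2 and 3 at P5 and replicates 4 and 5 at P3, and peaks were called against input DNA on each library and on the pooled libraries of an age. The labels give no genotype, strain or treatment for these retinas, and nothing says whether 2 libraries of an age came from separate animals. The study's methods place its wild-type mice on a C57BL/6J background, while its Reporting Summary names BL6129/6N. The tissue is whole retina, which holds neurons, glia and vessels, and the libraries do not tell these apart.

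Bmal1 is a basic helix-loop-helix transcription factor that pairs with CLOCK and drives the circadian clock from E-boxes, short DNA elements whose best known form is CACGTG. Its better known sites stand in promoters and in enhancers within introns or between genes. A peak in an exon or at a transcript end says where the DNA was recovered, and does not say that the transcript there is its target. The authors' annotation names a gene by its transcription start site (TSS), the one closest to the peak, which can be another gene than the one whose exon or end holds the peak. In this text the gene that holds the peak, taken from the transcript named in the annotation, is called the host gene, and the gene with the nearest TSS is called the assigned gene.

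The score of a peak is its number of tags per 10 M, scaled by the authors. The scores of a list are whole multiples of 1 step, from which the depth was inferred as 62.0 M and 68.3 M tags for P5 replicates 2 and 3 and 55.2 M and 65.7 M tags for P3 replicates 4 and 5. The peaks of a list have 1 width, between 138 and 170 bp. All tag numbers in these classes are small. They lay between 14 and 30 tags in the libraries and between 26 and 46 tags in the pooled lists, so that single scores carry wide counting intervals. A peak of a pooled list and a peak of a library in that pool share reads and are not separate measurements.

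The sequences around the E-boxes of 6 of these peaks are shown because the E-box is the element through which Bmal1 binds DNA. The exact hexamer CACGTG occurred in 3 of the 436 peaks, and 2 of these are printed with 12 bases on either side. The other 4 windows hold forms allowed by the flexible pattern used in the study, in which position 3 is C or T and position 4 is G or T on one of the strands. Each is read 5′ to 3′ on the strand of the host transcript from RefSeq's GRCm38.p6, and the capitals mark the hexamer.
Cgnl1 coding exon 14 of 19, P5 replicate 3, chr9:71641360-71641389, minus strand: gtcggagaggatCACGTGgagcagggaaca
Pithd1 intron beside coding exon 5 of 6, P3 replicate 5, chr4:135977288-135977317, minus strand: cgagatgcagacCACGTGgtaacccgtgtc
Muc15 TTS, P5 pooled, chr2:110740366-110740395, plus strand: taatctagaatgCACATGcaagcctttgtt
Fgl2 3′ UTR, P5 pooled and P5 replicate 3, chr5:21376307-21376336, plus strand: gctaaatatacaCATTTGagaatataccag
Slco2b1 TTS, P5 pooled, chr7:99657152-99657181, minus strand: gaagacgtgactCAAGTGtcttccctttgc
Cyp27a1 coding exon 2 of 9, P3 pooled, chr1:74731997-74732026, plus strand: ccactcttggagCAAGTGatgagacaggag

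Both printed CACGTG hexamers come from single-library peaks annotated as coding exon. That of Cgnl1 lies in coding sequence, and that of Pithd1 lies in the intron beside the exon. Cgnl1 encodes paracingulin, a protein of cell junctions, and its peak (chr9:71641351-71641521) had 20 tags and a score of 2.93 in P5 replicate 3. The assigned gene of that peak is Myzap. The Pithd1 peak (chr4:135977172-135977342) had 23 tags and a score of 3.50 in P3 replicate 5, and its assigned gene is Lypla2. The third CACGTG lies in the TTS region of the noncoding gene D730045A05Rik on chromosome 18, in a P3 replicate 4 peak of 21 tags and a score of 3.81. None of the 3 overlapped a peak of a pooled list, and no member of the pooled lists held the exact hexamer, with 0 of 18 at P5 (95% interval up to 18.5%) and 0 of 76 at P3 (up to 4.74%). Over the 6 lists 0.688% of the peaks described here held it (0.142 to 1.998%), against 184 of 15698 other narrow peaks, or 1.17%.

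TTS peaks were the most frequent class, with 154 of the 436. Coding exons held 132 peaks, 3′ UTRs 117, exons of noncoding RNAs 25 and 5′ UTRs 8. The P5 pooled list held 18 such peaks, with 8 in TTS regions, 6 in 3′ UTRs and 4 in coding exons. P5 replicate 2 held 8 and P5 replicate 3 held 44. The P3 pooled list held 76, with 31 in TTS regions, 23 in coding exons, 16 in 3′ UTRs, 5 in noncoding exons and 1 in a 5′ UTR. P3 replicate 4 held 268 and P3 replicate 5 held 22. The number followed the length of the list, since P3 replicate 4 alone had 9543 narrow peaks and P5 replicate 2 had 200. Assigning the classes again from the curated RefSeq transcripts gave 413 of the 436 peaks the same class. It moved 4 of them to introns and none to promoters or between genes.

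**Figure D1:**
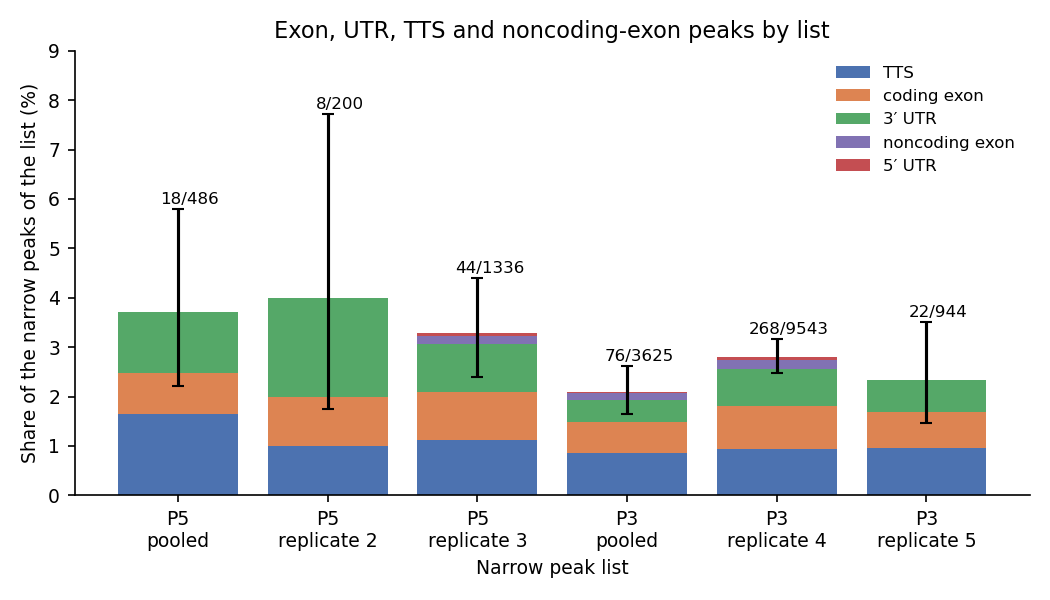
Share of the narrow peaks of each list (%, vertical axis) that the annotation places in a TTS region, a coding exon, a 3′ UTR, a noncoding exon or a 5′ UTR, as stacked bars, with the number of peaks over the bars and 95% Clopper-Pearson intervals of the total. The totals lie between 2.10% in the P3 pooled list and 4.0% in P5 replicate 2, and the interval of P5 replicate 2 covers the totals of all other lists.

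The TTS class as assigned again here runs from 100 bp before to 1000 bp after the transcript end, so most of its window lies past the end. Of the 151 TTS peaks whose transcript could be placed, 121 had their center beyond the annotated end, at a median of 428 bp past it. The center of all 151 stood at a median of 298 bp past the end, and 23 peaks held the end itself. Some centers stood outside that window of the end as placed here, such as Kcnq3 (8501 bp before it) and Zkscan16 (4058 bp before it). The 116 placed 3′ UTR peaks had their centers at a median of 1209 bp before the end, and 8 of them held the stop codon. The annotation puts peaks around a TSS in a promoter class, which limits the exon peaks at the start of a gene. The positions of all annotated exons were not counted for comparison. Of 131 exon peaks with a placed transcript, 101 lay in internal exons, 21 in the last of several exons, 5 in the first of several and 4 in the only exon. The exons that held them had a median length of 172 bp, with a range of 52 to 5988 bp, and 94 of the 131 peaks also held a splice site. A peak is about as long as such an exon, so most exon peaks reached into an intron.

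**Figure D2:**
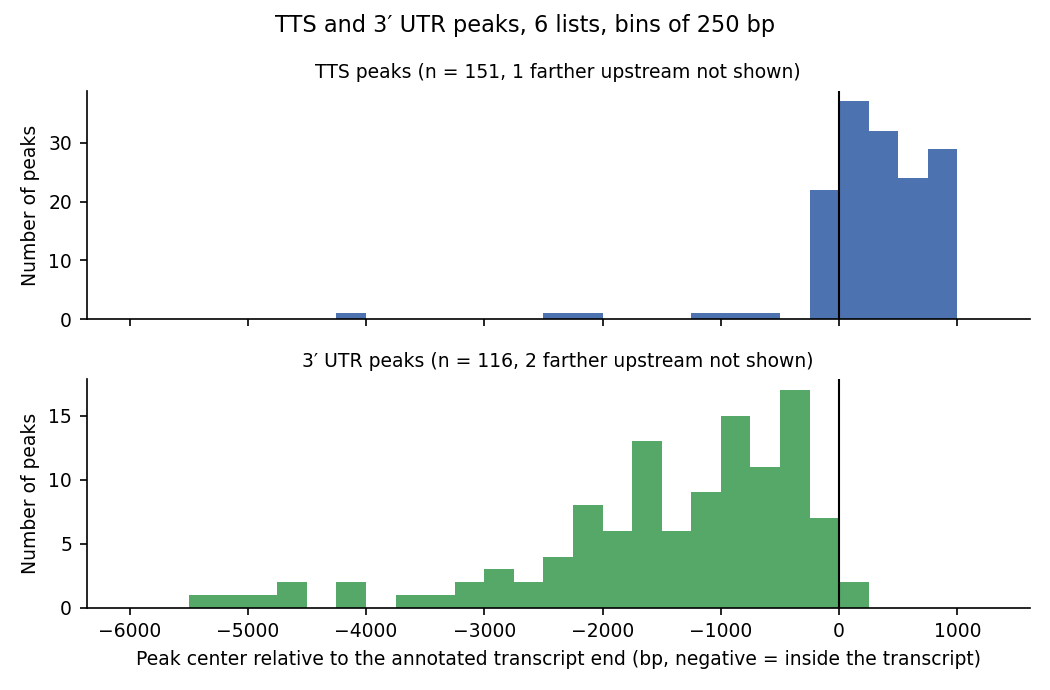
Position of the peak center relative to the annotated end of the host transcript (bp, horizontal axis, negative inside the transcript) for TTS peaks (upper panel, n = 151) and 3′ UTR peaks (lower panel, n = 116), as numbers of peaks in bins of equal width over the 6 lists. Of the TTS peaks, 121 lie beyond the end, and the class is meant as a window around an annotated end. Some lie far before the end as placed here, such as that of Kcnq3 (8501 bp before it), which is outside the plotted range. The 3′ UTR peaks spread over the transcript before the end, with a median of 1209 bp.

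The 18 members of the P5 pooled list had 18 different host genes, none of them a core clock gene. The highest score was at the TTS of Muc15, a mucin of the cell surface, with 35 tags and 2.69 (chr2:110740259-110740397, 791 bp beyond the transcript end). The next was Inhbe, which encodes the activin beta E subunit of the TGF-beta family, with 33 tags and 2.53 (chr10:127350219-127350357). That peak lies in coding exon 2 of 2 and holds the stop codon. In P5 replicate 3 the Inhbe peak had 28 tags and a score of 4.10, which is the highest score of these classes in that library, shared with the TTS peak of the zinc finger gene Zfp985. P5 replicate 2, whose list ends at a score of 2.74, held no peak there, and neither did any P3 list. The Inhbe place was thus seen in 1 of the 4 libraries.

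Another 5 genes had a score of 2.38 and 31 tags each at P5. They were the TTS of Fbxw10, an F-box protein gene, the TTS of C8b, a complement component, the TTS of Slco2b1, an organic anion transporter, the TTS of Azi2, an adaptor of the kinase TBK1, and the 3′ UTR of the zinc finger gene Zfp318. Pcdhb19, a clustered protocadherin, and the olfactory receptor pseudogene Olfr947-ps1 had 30 tags and 2.30 each at their TTS. B3gnt7, a glycosyltransferase, and Cenpj, a protein of centriole assembly, had 29 tags and 2.23 each in coding exons. Zfp992 and Fgl2, which encodes a fibrinogen-like protein, had the same score in 3′ UTRs. The lowest were the 3′ UTRs of Zbtb2, Gm12185 and Zmpste24 and the TTS of AI507597, with 28 tags and 2.15, and a coding exon of Ccdc73 with 27 tags and 2.07. The whole set thus spans 27 to 35 tags, and the counting interval of Muc15 (1.87 to 3.74) contains all of these scores.

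Some of these places were also in the list of a library. A peak of P5 replicate 3 overlapped the pooled peaks of Inhbe, Fbxw10 (22 tags, 3.22), Fgl2 (22 tags, 3.22) and Olfr947-ps1 (23 tags, 3.37). A peak of P5 replicate 2 overlapped that of Zbtb2 (22 tags, 3.55). The other 13 of 18 pooled members, Muc15 among them, were in neither library's list. These are 5 of 18 (27.8%, 9.70 to 53.5%), against 24.7% of all P5 pooled peaks with an overlapping peak in one of their libraries.

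At P3 a high pooled score was in the 3′ UTR of Pcdhb16, a clustered protocadherin with a single exon on chromosome 18, with 44 tags and 3.64 pooled and 28 tags and 5.08 in P3 replicate 4. P3 replicate 5, whose list ends at 2.59, had no peak there. Cyp27a1, the sterol 27-hydroxylase, had 38 tags and 3.14 in coding exon 2 of 9, and Aak1, a kinase of clathrin adaptors, had 38 tags and 3.14 in its 3′ UTR. Of the Cyp27a1 and Aak1 peaks, that of Aak1 was also in the P3 replicate 4 list (18 tags, 3.26), and that of Cyp27a1 was in no library's list.

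Other members among the 10 highest of the P3 pooled list scored 3.06 or 2.98. Those at 3.06, with 37 tags, were the 3′ UTRs of Fam149b and Zfp395, the TTS of Mep1b, a meprin metalloprotease subunit, and a noncoding exon of 9830166K06Rik. Those at 2.98, with 36 tags, were coding exon 11 of 17 of Tbc1d15, a Rab GTPase-activating protein, and the TTS of Ghrl, the gene of the hormone ghrelin. In P3 replicate 4 Ghrl had 25 tags and 4.53, and Tbc1d15 had 18 tags and 3.26. A single 5′ UTR peak was in a pooled list, that of the galactosyltransferase gene B3galt5 at P3 (30 tags, 2.48, 670 bp from the TSS). Of the 76 pooled members, 18 were overlapped by a peak of P3 replicate 4 and 0 by one of P3 replicate 5 (95% interval up to 4.74%). Of all P3 pooled peaks, 24.6% were overlapped by a peak of P3 replicate 4 and 3.15% by one of P3 replicate 5. A peak of either library overlapped 23.7% (14.7 to 34.8%) of these members, against 27.4% of all P3 pooled peaks.

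The single libraries had other genes at the top. In P5 replicate 2 the 3′ UTRs of Zbtb2 and Zfp180 and the TTS of Vps37a, an ESCRT component, had 22 tags and 3.55 each. In P5 replicate 3, after Inhbe and Zfp985 with 28 tags each, the 3′ UTR of the helix-loop-helix gene Tcf24 had 26 tags and 3.81. In P3 replicate 4 the 3′ UTR of Mfsd13a had 30 tags and 5.44, and the 3′ UTR of Slc4a8, a bicarbonate transporter, and the TTS of Mir1905 had 29 tags and 5.26 each. In P3 replicate 5 the TTS of Soat2, an enzyme of cholesterol esterification, had 26 tags and 3.96, coding exon 2 of 2 of Zfp3 had 25 tags and 3.8, and the TTS of C130026I21Rik had 24 tags and 3.65.

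**Figure D3:**
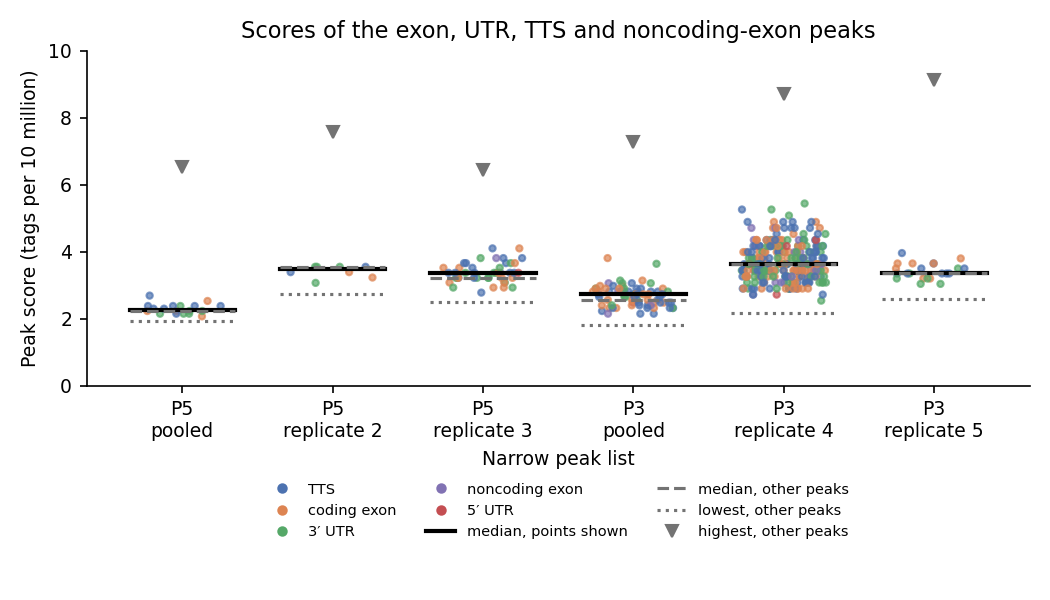
Peak score (tags per 10 M, vertical axis) of every exon, UTR, TTS and noncoding-exon peak by list, colored by class, with the median of these peaks (solid line) and the lowest, median and highest scores of the other narrow peaks of the list (dotted line, dashed line and triangle). The medians of the points and of the other peaks are 2.27 and 2.23 in the P5 pooled list and 2.73 and 2.56 in the P3 pooled list, and the highest point stays below the triangle in every list.

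No member was found in 2 libraries. Of the 342 members of the 4 library lists, 0 overlapped a narrow peak of another library (95% Clopper-Pearson interval up to 1.07%). Of all 12023 library peaks, 61 did (0.507%), and the 0 of 342 could not be told from the 61 of 11681 other peaks at this number (Fisher's exact test, p = 0.422). The 436 peaks cover 413 places, of which 23 are in a pooled list and in 1 library of that pool. By gene, 2 hosts had peaks at both ages at different positions, and both encode zinc finger proteins. The 3′ UTR of Zfp180 had a peak in P5 replicate 2 (chr7:24107136-24107300, 22 tags) and one in P3 replicate 4 (chr7:24106891-24107035, 23 tags), with centers 255 bp apart. The 3′ UTR of Zfp318, in an exon of 10287 bp, had a P5 pooled peak and a P3 replicate 4 peak (20 tags, 3.63) with centers 4947 bp apart. Both P5 peaks were mostly soft-masked as repeats in the reference genome, with 66.67% of the bases in Zfp180 and 68.35% in Zfp318.

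Genes named Zfp with a number made up 16 of the 402 host genes, or 3.98%, and 403 of the 26216 curated RefSeq genes, or 1.54%. This group was singled out after the values were seen and no test was made. The Zfp992 peak at P5 (chr4:146467565-146467703) lies in repeated sequence, since its 31-base words occur a median of 3 times in the genome. The TTS peak of C130026I21Rik in P3 replicate 5 has a median of 2 copies, and the other 434 members have a median of 1.

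The 9 gene lists of the clock, the retina and related functions held 12 hosts of these peaks among 379 genes, or 3.17%, where 402 of 26216 curated RefSeq genes were hosts, or 1.53%. Of the 25 core clock genes, 0 hosted a member. Of the 31 semaphorins, plexins and neuropilins 0 hosted a member. Plxnd1, a semaphorin receptor, was the assigned gene of a P3 replicate 4 peak (26 tags, 4.71) that lies at the TTS of Tmcc1, 23.3 kb from the Plxnd1 TSS. Of 45 other axon guidance genes 2 hosted a member, both ephrin receptors. Epha7 had 23 tags and 3.37 in its 3′ UTR in P5 replicate 3, and Epha10 had 20 tags and 3.63 at its TTS in P3 replicate 4.

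Of 46 angiogenesis genes 2 were hosts, both in P3 replicate 4 alone. Pecam1, an adhesion molecule of endothelium, had 24 tags and 4.35 in coding exon 3 of 15, and Thbs1, a secreted inhibitor of angiogenesis, had 20 tags and 3.63 in its 3′ UTR. Neurod1, a helix-loop-helix factor of photoreceptors and amacrine cells, was the 1 host of 52 retinal neuron transcription factors, with 18 tags and 3.26 at its TTS in P3 replicate 4. Among 39 photoreceptor genes, the host Grk1, the rhodopsin kinase, had 35 tags and 2.90 in its 3′ UTR in the P3 pooled list, where the assigned gene is Tmem255b. By assigned gene, 0 of the 39 had a peak of these classes.

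Of 43 TGF-beta and activin genes 2 were hosts, Inhbe at P5 and Fstl1, a follistatin-like protein, in P3 replicate 4 (3′ UTR, 17 tags, 3.08). Of 57 chromatin genes 3 were hosts, the chromodomain helicases Chd6 (coding exon 34 of 37, 20 tags), Chd2 (3′ UTR, 20 tags) and Chd1 (coding exon 6 of 36, 16 tags), all in P3 replicate 4. Kdm4c, a histone demethylase, was assigned a P5 replicate 3 peak of 22 tags that lies in the 3′ UTR of Frmd3, 53.6 kb from its TSS. Of 44 cadherins and protocadherins on the list 0 hosted a member. The clustered genes Pcdhb16 and Pcdhb19 are not on that list. No gene of these 9 lists was a host in both a P5 and a P3 list, and only 2 of all 402 host genes were.

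The assigned gene was another gene than the host in 167 of the 431 members whose host could be matched, or 38.7% (34.1 to 43.5%). The 2 names differed in 53.4% of 3′ UTR peaks, 39.9% of TTS peaks, 29.01% of coding exon peaks and 26.1% of noncoding exon peaks, and in 0 of 8 5′ UTR peaks. In the P5 pooled list they differed in 6 of 18 and in the P3 pooled list in 26 of 75. Examples at P5 are Slco2b1, whose TTS peak is assigned to Mir3965, and Zmpste24, whose 3′ UTR peak is assigned to Col9a2. At P3 the Aak1 peak is assigned to Nfu1, the Cyp27a1 peak to Prkag3 and the Slc4a8 peak to the sodium channel gene Scn8a. The 8 hosts of 5′ UTR peaks are Sigirr in P5 replicate 3, B3galt5 in the P3 pooled list, and Tmem14a, Eif4e2, Dsel, Mapkbp1, Tafa4 and Zfp420 in P3 replicate 4. Their peaks lay between 305 bp (Mapkbp1) and 40.4 kb (Tafa4) from the nearest TSS.

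The peaks were nearer to a TSS than most narrow peaks were. The median distance was 13.99 kb in the P5 pooled list, where all narrow peaks had 71.2 kb, and 11.2 kb in the P3 pooled list, where all had 75.3 kb. Position within a gene enters the class, and intronic peaks of the P3 pooled list had a median of 38.1 kb.

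The share of the narrow peaks in these classes was higher at P5 in every library. It was 4.0% and 3.29% in P5 replicates 2 and 3, against 2.81% and 2.33% in P3 replicates 4 and 5. The means were 3.65% ± 0.4996 at P5 and 2.57% ± 0.338 at P3 (SD, n = 2 each), a difference of 1.08 percentage points. The groups did not overlap, and the exact two-sided permutation test gave p = 0.333, the smallest value that 2 against 2 libraries allow. In the pooled lists the share was 3.70% (18 of 486, 2.21 to 5.79%) at P5 and 2.10% (76 of 3625, 1.66 to 2.62%) at P3 (Fisher's exact test over peaks, p = 0.0343). This p covers counting error only, and it reached 0.133 in the upper 50% of the scores. In the broad lists the difference was 0.0429 points over the libraries (exact permutation test, p = 1.0) and -0.0900 points in the pooled lists. By class, 3′ UTR peaks were 1.23% of the P5 and 0.441% of the P3 pooled list (Fisher's exact test, p = 0.0377 before adjustment for 5 classes). TTS peaks were 1.65% and 0.855% (Fisher's exact test, p = 0.127) and coding exon peaks 0.823% and 0.634% (p = 0.552). The share of coding exons among the members was 22.2% at P5 and 30.3% at P3 (Fisher's exact test, p = 0.576).

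The scores of these peaks lay close to those of the other narrow peaks. Their medians were 2.27, 3.47 and 3.37 in the P5 pooled, replicate 2 and replicate 3 lists, against 2.23, 3.55 and 3.22 in the other narrow peaks. At P3 they were 2.73, 3.63 and 3.35 in the pooled, replicate 4 and replicate 5 lists, against 2.56, 3.63 and 3.35. In the P3 pooled list 60.5% of them were above the list median, against 44.2% of the others (Fisher's exact test adjusted over 6 lists, p = 0.0302). Neither P3 library showed this, with 43.3% against 46.7% in replicate 4 (adjusted p = 0.437) and 45.5% against 45.3% in replicate 5 (adjusted p = 1.0), by the same exact test. Over the 4 libraries the mean difference was -6.17 points ± 18.03 (SD, exact sign-flip test, p = 0.750). It was 2.36 points without P5 replicate 2, where 0 of 8 were above the median. There the highest member score equaled the list median of 3.55, and ties were not counted as above it. Of the other peaks of that list, 31.8% were above it. The best member stood behind 16 of 486, 61 of 200 and 13 of 1336 peaks in the P5 pooled, replicate 2 and replicate 3 lists. At P3 it stood behind 15 of 3625, 84 of 9543 and 39 of 944 peaks in the pooled, replicate 4 and replicate 5 lists.

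The share of these peaks with a flexible E-box did not pass a test against the other peaks in any list. At P5 they were in 4 of 18 (22.2%), 2 of 8 (25%) and 10 of 44 (22.7%) of the pooled, replicate 2 and replicate 3 members. All narrow peaks of those lists held one in 31.7%, 38.5% and 36.6% of cases. At P3 they were in 21 of 76 (27.6%), 61 of 268 (22.8%) and 10 of 22 (45.5%) of the pooled, replicate 4 and replicate 5 members, against 33.1%, 29.2% and 34.9% of all narrow peaks. The share was lower than in the other peaks in 5 of the 6 lists and higher in P3 replicate 5. The lowest adjusted p by Fisher's exact test over the 6 lists was 0.122, in P3 replicate 4 (difference -6.58 points, unadjusted p = 0.0203). Over the 4 libraries the mean difference was -6.03 points ± 11.8 (exact sign-flip test, p = 0.375, where 0.13 is the smallest possible).

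**Figure D4:**
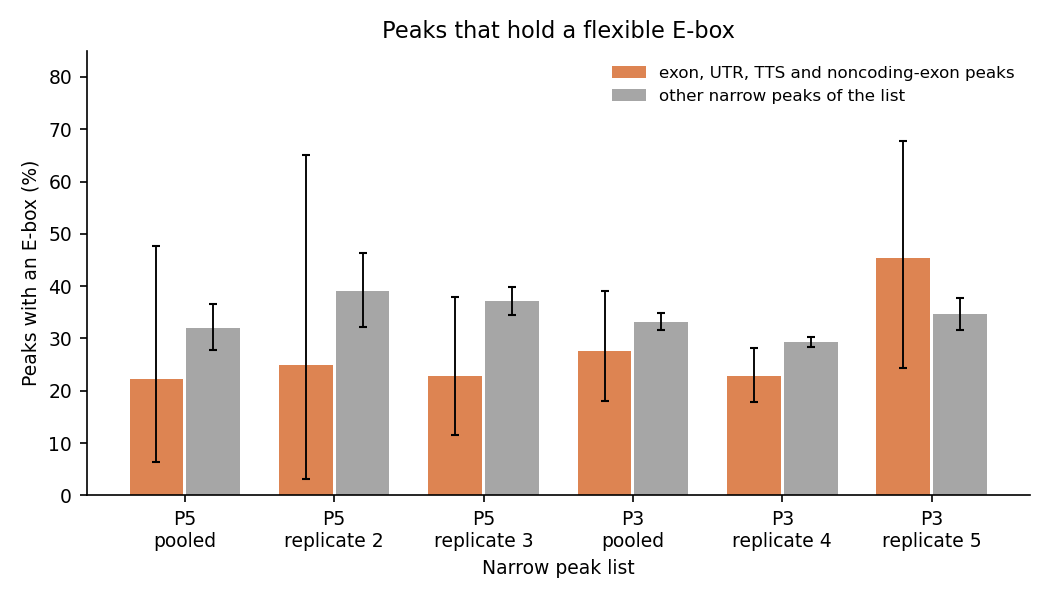
Share of peaks with a flexible E-box (%, vertical axis) by list in exon, UTR, TTS and noncoding-exon peaks (orange) and in the other narrow peaks of the list (gray), with 95% Clopper-Pearson intervals. The orange bar is lower than the gray one in 5 lists and higher in P3 replicate 5 (45.5% against 34.6%), and the 2 intervals overlap in every list but P3 replicate 4 (17.9 to 28.3% against 28.4 to 30.3%).

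Besides CACGTG the pattern allows 3 hexamers, each counted with its reverse complement, and a peak can hold several. Over the 6 lists CATTTG was in 48 of 436 members (11.01%) and in 14.2% of the others, CACTTG in 8.03% and 8.26%, and CATGTG in 7.57% and 11.6%. The TTS peak of Slco2b1 held 4 flexible E-boxes within its 138 bp, the most of any P5 pooled member, and the other 3 P5 members with one were Muc15, Fgl2 and Zfp318. Cyp27a1, Fam149b, Zfp395 and 9830166K06Rik are those with one among the 10 highest P3 pooled members. Pcdhb16 and Inhbe held none. The study lists Inhbe among its P5 genes with Bmal1 E-box regions, and the region it searched was not compared with the peak here.

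GC content moved with the class. The median GC content of the members was 39.4% and 44.2% in P5 replicates 2 and 3, against 37.6% and 39.2% in the other peaks. It was 41.4% and 38.6% in P3 replicates 4 and 5, against 37.2% and 35.4%. The members were higher in 4 of 4 libraries, by a mean of 3.54 points ± 1.35, and the exact sign-flip test gave its smallest possible p of 0.13. In the pooled lists the medians were 37.1% against 38.1% at P5 and 42.4% against 35.8% at P3. The 7 peaks of 5′ UTRs in the 4 libraries had 48.3%, coding exon peaks 46.2%, TTS peaks 40.0% and 3′ UTR peaks 38.8%, while intronic peaks had 38.6% and intergenic peaks 36.5%. The 20 noncoding exon peaks had 36.5%, below the intronic peaks. Coding exon and 5′ UTR peaks were the farthest from intronic ones. The E-box share was lower in the members of P3 replicate 4 below the list's median GC content (22.2% against 27.5%) and above it (23.1% against 31.2%).

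Fewer members than other peaks were mostly repeated sequence. More than 50% of the bases were soft-masked as repeats in 12.5% and 2.27% of the members of P5 replicates 2 and 3, against 17.2% and 13.9% of the others. The values were 5.97% and 13.6% in P3 replicates 4 and 5, against 15.8% and 14.2%. They were lower in 4 of 4 libraries (mean difference -6.69 points ± 5.04, exact sign-flip test, p = 0.13). Against intronic peaks alone the mean difference was -3.18 points (exact sign-flip test, p = 0.375). By Fisher's exact test adjusted over 6 lists the difference passed in P5 replicate 3 (p = 0.0456), P3 replicate 4 (p = 1.16e-05) and the P3 pooled list (6.58% against 18.99%, p = 0.0128), and not in P5 replicate 2 (p = 1.0), P3 replicate 5 (p = 1.0) or the P5 pooled list (5.56% against 22.0%, p = 0.210). A median of more than 1 copy of the 31-base words was rare in the members. It was found in 1 of 18 in the P5 pooled list (3.63% of the others), 0 of 268 in P3 replicate 4 (1.39% of the others) and 1 of 22 in P3 replicate 5 (2.17%). None of these differences passed by Fisher's exact test (lowest adjusted p = 0.321). Any 31-base word with more than 1 copy was more frequent. At P5 it was in 2 of 18, 2 of 8 and 2 of 44 of the pooled, replicate 2 and replicate 3 members (24.6%, 20.3% and 18.1% of the others). At P3 it was in 17 of 76, 28 of 268 and 6 of 22 of the pooled, replicate 4 and replicate 5 members (23.6%, 15.9% and 17.8%). None of these passed either (Fisher's exact test, lowest adjusted p = 0.0503).

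A broad region of the same list covered 33.3%, 37.5% and 38.6% of the members in the P5 pooled, replicate 2 and replicate 3 lists, where all narrow peaks had 17.9%, 32.5% and 27.0%. In the P3 pooled, replicate 4 and replicate 5 lists it covered 15.8%, 19.4% and 18.2% of them, where all narrow peaks had 22.8%, 32.1% and 33.8%. The difference from the other narrow peaks was positive in both P5 libraries, 5.21 and 12.01 points, and negative in both P3 libraries, -13.1 and -16.0 points. Only P3 replicate 4 passed by Fisher's exact test adjusted over 6 lists (p = 1.78e-05), and the other 5 adjusted p values were between 0.204 and 0.716. In the P3 replicate 4 list 12.05% of coding exon peaks, 23.6% of 3′ UTR peaks and 22.5% of TTS peaks were covered, against 29.9% of intronic and 34.4% of intergenic peaks. In the pooled lists the P5 peaks of Inhbe and Zbtb2 and the P3 peaks of Pcdhb16, Cyp27a1 and Aak1 were in no broad region. In the library lists Inhbe was in a broad region of P5 replicate 3 and Zbtb2 in one of P5 replicate 2.

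**Figure D5:**
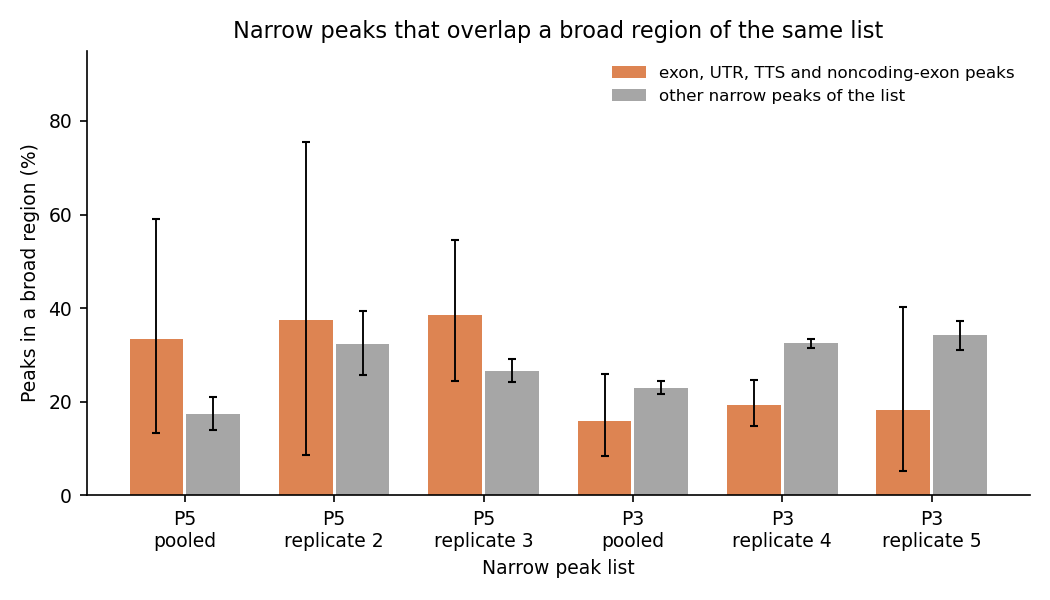
Share of narrow peaks that overlap a broad region of the same list (%, vertical axis) in exon, UTR, TTS and noncoding-exon peaks (orange) and in the other narrow peaks (gray), with 95% Clopper-Pearson intervals. The orange bar is higher in the 3 P5 lists and lower in the 3 P3 lists, and the intervals are apart in P3 replicate 4 alone.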

How the data were processed

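Per the labels and the study's methods, reads were processed with bcl2fastq, Trim Galore and bowtie2 (given as Bowtie in the labels) on GRCm38 (mm10), and MACS2 is named as the caller, while the list headers are those of HOMER's annotation program. Their versions and the thresholds for calling were not given in the sources used here, and the Methods and the Reporting Summary give different antibody catalogue numbers. The deposited score is in tags per 10 M, scaled to depth by the authors. The focus ratio, a fraction from 0 to 1 of a peak's tags as computed by the authors, and the deposited distance to the nearest TSS were read as given. The lists of all pooled libraries, the authors' gene lists and their pathway tables were not used here, apart from the study's E-box entry for Inhbe.

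Members are the rows of 6 narrow lists whose annotation starts with exon, 5' UTR, 3' UTR, TTS or non-coding. Tags were recovered as whole multiples of a step (tolerance 0.0052). Hosts were matched by RefSeq accession, for 431 of 436. Copies were counted for 31-base words in the GRCm38.p6 reference, whose soft-masked bases served as repeats, because the detailed annotation of all 436 members repeats their class and holds no repeat name. E-boxes were searched on both strands from the first to the last base of a peak. Classes were assigned again with a promoter window of 1000 bp before to 100 bp after a TSS and a TTS window of 100 bp before to 1000 bp after a transcript end.

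Ages were compared with exact two-sided permutation tests over 4 libraries, and members with the other peaks by exact sign-flip tests over 4 libraries and two-sided Fisher's exact tests over peaks, adjusted by Benjamini-Hochberg over 6 lists. With 2 libraries per age the smallest p values are 0.333 and 0.13. Fisher's tests and Clopper-Pearson intervals cover counting error only, as peaks of a library are not replicates. Intervals over all 6 lists also treat pooled and library peaks that share reads as separate. The threshold was 0.05. The depth, inferred from the score step as 55.2 M to 68.3 M tags per library and different from the depth in the study's Reporting Summary, gave the members 14 to 30 tags each.

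Named members are those of the P5 pooled list, the 10 highest of the P3 pooled list, the 3 highest of each library, 5' UTR members of pooled lists, those with CACGTG and up to 4 hosts or assigned genes of each of 9 gene lists, with some of these not reported here. Genes with peaks at both ages, the Zfp group and host examples were chosen after their values were seen. The members and lists were chosen with earlier results of these data known. The code was tested on simulated sequences and intervals with known answers. Python 3.11.15, numpy 2.4.6, pandas 2.3.3, scipy 1.17.1, numba 0.67.0 and matplotlib 3.10.9 were used.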

Additional observations from a re-analysis of the deposited data

Results flagged for a closer look

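The share of members in a broad region, relative to the other narrow peaks, ran in opposite directions at the 2 ages. The difference was 5.21 and 12.01 points in P5 replicates 2 and 3 and -13.1 and -16.0 points in P3 replicates 4 and 5, which is 23.2 points between the means of the ages. All libraries of an age moved the same way, and the difference between the ages had p = 0.333 in the exact two-sided permutation test, the smallest value that 2 against 2 libraries allow. The P5 replicate 2 value rests on 3 of 8 members, and against intronic peaks alone it was -1.63 points. On that comparison P5 replicate 3 had 15.6 points (Fisher's exact test, unadjusted p = 0.0271) and the P5 pooled list 19.9 points (unadjusted p = 0.0392), against -10.5 and -13.3 points in P3 replicates 4 and 5.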

How the results depend on the processing

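No paired analysis was possible because the libraries of the ages share no replicate number. Of 90 alternative values 6 reversed. Of the 42 over libraries, 40 kept their direction, and none of these tests could reach the threshold with 4 libraries. Of the other 48, 44 kept their direction and 37 also their side of the threshold. They come from Fisher's exact tests, except the class make-up over single libraries. That value was -4.12 points (exact permutation test, p = 0.333) and could not reach the threshold. Leaving out each library in turn gave an age difference in the share of narrow peaks of 0.724 to 1.43 percentage points, GC differences of 3.06 to 4.11 points, soft-masked differences of -8.74 to -5.04 points, multicopy differences of -2.22 to -0.213 points, overlap differences of -0.790 to -0.167 points and E-box differences of -11.7 (without P3 replicate 5) to -3.26 points. The difference in the share of members above the median score ran over -11.7 to 2.36 points and reversed without P5 replicate 2. The pooled age difference was 1.68 points in the upper 50% of the scores (Fisher's exact test, p = 0.133) and reversed to -0.0900 points in the broad lists, where the difference over libraries was 0.0429 points. The soft-masked difference was -3.18 points against intronic peaks. The E-box difference reversed to 0.183 points over the libraries with the exact hexamer, to 1.03 points in P5 replicate 3 with the exact hexamer and to 0.769 points in the P5 pooled list in the upper 50% of the scores. Against intronic peaks the share of members in broad regions reversed to -1.63 points in P5 replicate 2, which was chosen after seeing the data, as were the soft-masked share and the broad regions. The cause of these changes was not tested. The comparison of repeat names in the detailed annotation was not run, because all members are without a repeat name there by construction. With 8 and 22 members, P5 replicate 2 and P3 replicate 5 limit every mean over libraries.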
